A study of Arabidopsis thaliana with 22 samples.

Results

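Continuous red light for 6 h was set against the same time in darkness in etiolated seedlings of Arabidopsis thaliana, the thale cress. The comparison rests on 4 of the 22 RNA sequencing libraries of a study of splicing during greening, and all 23011 genes that passed the filter on low counts were tested. The red 6 h group is 2 libraries of seedlings given continuous red light for 6 h, and the dark group is 2 libraries of seedlings left in darkness for the same 6 h. Both groups were of the ecotype Col-0, and the labels name no transgene or mutation. Both had been plated on medium with 2% sucrose, stratified, brought to germinate under a short exposure to white light and kept for 6 days in darkness. Whole seedlings were named as the source, so cotyledon, hook, hypocotyl and root are mixed in every library. Neither wavelength nor fluence rate of the red light is known from the sources used. The p-values measure a spread estimated between replicates of all 22 libraries in 11 groups, not of the 4 compared libraries alone. Nothing in the labels tells separate cultures from repeat samples, so that spread may be technical.

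A seedling that germinates below ground grows in the dark with a long hypocotyl, a closed apical hook and folded cotyledons that hold etioplasts in place of chloroplasts. Red light is absorbed mainly by the phytochromes, of which phytochrome A builds up in darkness and phytochrome B dominates in lasting red light. Active phytochrome enters the nucleus, causes the breakdown of the PIF transcription factors and holds back the COP1/SPA ubiquitin ligase, which otherwise removes light-promoting factors such as HY5. The seedling then stops elongating, opens its hook and cotyledons, and turns etioplasts into chloroplasts.

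The red 6 h libraries held 78741336 and 78811593 counts, against 42212582 and 42686688 in the dark libraries. The labels give 2 libraries per sequencing pool for light samples and 4 for dark samples, so light treatment cannot be told apart from pool size and depth in these groups. Replicates correlated across genes at r = 0.988 in red light and 0.990 in darkness, and their counts differed by far more than sampling noise. On the first principal component of all libraries, with 52.6% of the variance, the red 6 h libraries lay at 54.9 and 63.9 and their dark libraries at -51.4 and -46.5. Plastid genes took 0.0839% and 0.0621% of counts in red light and 0.0900% and 0.0685% in darkness. Seed storage transcripts set dark replicate 2 apart: the 12 markers summed to 57.2 and 28.5 CPM in red light and to 52.9 and 608.0 CPM in the dark replicates 1 and 2. Of 13 root markers 0 were called, with sums of 351.5 and 260.9 CPM in red light against 341.5 and 282.6 CPM in darkness. The part of seed storage RNA in the results was not tested. CPM is a gene's count scaled by the effective size of its library (edgeR, TMM). In RNA of whole seedlings, fewer cells of a type and less RNA per cell cannot be told apart.

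Red light for 6 h changed a large share of the transcriptome, and more genes rose than fell. At an adjusted p under 0.05 (edgeR quasi-likelihood F test, Benjamini-Hochberg over 23011 genes), 6378 genes were called, which is 27.7% of those tested. Of these 4055 (17.6% of genes tested) were higher in red light and 2323 (10.1%) were lower. The rises were also the larger changes: 1674 higher calls (7.27%) and 572 lower calls (2.49%) were at least 2-fold, 254 and 63 were at least 8-fold, and 56 and 13 were at least 32-fold. The median log2 change was 0.85 among higher calls, -0.62 among lower calls and 0.01 among all genes tested. Higher calls made up 63.58% of all calls, and 51.43% (3340 higher and 3154 lower) when libraries were scaled by their totals alone. Without dark replicate 1, dark replicate 2 or red replicate 2 the fit called 4114, 3953 and 3852 genes, and 2935 calls, 1893 higher and 1042 lower, held without each library in turn. Genes said to have risen or fallen passed this threshold.

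**Figure D1:**
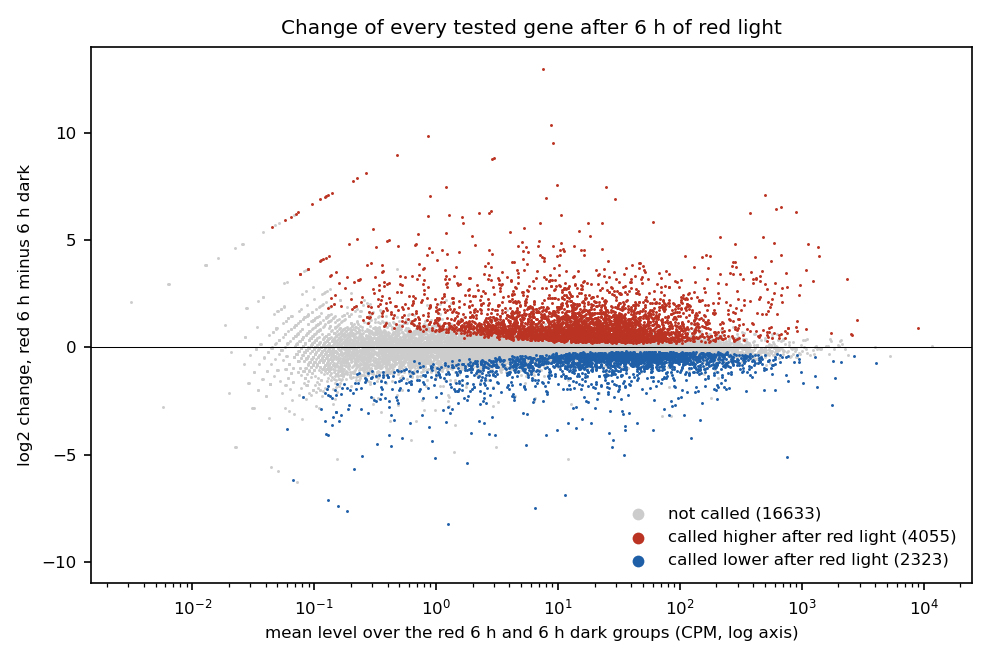
Each point is a tested gene, with its mean level over the red 6 h and 6 h dark groups in CPM on a log x axis and its log2 change, red 6 h minus 6 h dark, on the y axis; red points were called higher (4055), blue points lower (2323) and grey points were not called. The higher calls reach further from 0 than the lower calls, and calls occur at every level.

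The balance between rises and falls differed between bands of gene level. Among 6497 genes with a mean of 1 to 10 CPM over both groups, 18.8% rose and 6.74% fell. Among 11069 genes at 10 to 100 CPM, 21% rose and 11.8% fell. Among 2041 genes at 100 to 1000 CPM, 15.3% rose and 20.9% fell, and among the 55 genes above that 21.8% rose and 18.2% fell. Falls outnumbered rises only in the band of 100 to 1000 CPM. These shares are for TMM scaling and were not computed for library totals alone, under which the split over all genes was closer to even. Of the higher calls, 66 had at most 3 counts in each dark library, and 18 lower calls had at most 3 counts in each red 6 h library.

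Genes of this and the next paragraph were called, had a mean of at least 10 CPM in 1 group and had no overlap of libraries. Within these limits the highest changes belonged to genes that were almost silent in the dark. Genes below that level are not ranked here, and some, such as BBX16 at 9.83, had changes as high. AT3G28220, a TRAF-like family protein, had 14.6 and 15.5 CPM in red light, against 0 and 0 CPM in darkness, and with 2349 against 0 reads it was at least 445-fold higher (floor of 3 counts over the dark group). AT1G70820, annotated as a putative phosphoglucomutase, had 15.9 and 18.9 CPM in red light, against 0 and 0.0223 CPM in darkness. Its ratio of 1540 has a 95% counting interval of 276 to 60700, and its log2 change of 10.36 moved to 9.46 without dark replicate 1 and to 13.16 without dark replicate 2. AT1G26761, an arabinanase/levansucrase/invertase-like protein, had 2824 reads in red light and 2 in darkness (15.1 and 21.3 CPM in red light, against 0.0229 and 0.0223 CPM in darkness), a ratio of 802 with an interval of 222 to 6620. No overlap of libraries was a condition for choosing these genes and is no further evidence for their rise. The size of the fold rests on a handful of dark reads. After them came AT5G48490, a lipid-transfer-like protein, with 22.2 and 16.6 CPM in red light, against 0.0915 and 0.112 CPM in darkness, a log2 change of 7.55 ± 0.82, the anthocyanin genes DFR, UF3GT and LDOX, and 5 antenna genes of the photosystems, which are described with their pathways.

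The lowest changes within the same limits included a B-box factor and genes of the cell wall and surface. BBX23 (AT4G10240), a B-box factor of the light response, had 0.126 and 0.013 CPM in red light, against 13 and 12.6 CPM in darkness, a log2 change of -7.47 ± 0.86. CYP96A5 (AT2G21910), a cytochrome P450 of a family with wax-forming members, had 0.328 and 0.0522 CPM in red light, against 23.1 and 22.7 CPM in darkness, a log2 change of -6.88 ± 0.76. Both were close to the floor in red replicate 2, and without red replicate 1 the estimates were -9.76 and -8.75, against -6.68 and -6.15 without red replicate 2. XTH15 (AT4G14130), a xyloglucan endotransglucosylase/hydrolase that remodels the cell wall, had 46.8 and 38.1 CPM in red light, against 1446 and 1475 CPM in darkness, a log2 change of -5.10 ± 0.43. It shares 382 of its 1373 bases with AT4G14120 on the other strand, and the library kit does not mark strand, so reads of overlapping genes cannot be separated. AT3G18530, an ARM repeat protein, fell by 5.02 on the log2 scale, and GRF7, a growth-regulating factor, had 2.49 and 1.75 CPM in red light, against 56.1 and 51 CPM in darkness, and fell by 4.66. Low in every red library were also BETA-TIP, a tonoplast aquaporin of seeds (1.79 and 3.63 CPM in red light, against 50.7 and 56.4 CPM in darkness), and AT4G25580, annotated as a CAP160 protein (7.62 and 17.5 CPM in red light, against 195 and 270.1 CPM in darkness), whose log2 changes of -4.31 and -4.21 were -4.93 and -4.97 without red replicate 2.

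Promoters of 2 of the 3 highest and of the 3 lowest of these genes are given as the 250 bases before the annotated gene start, to show which light-related motifs lie there. They were read from the RefSeq TAIR10.1 genome, 5′ to 3′ on the gene's strand, with motif matches on either strand in capitals. AT3G28220 lies at chr3:10523931-10524180 (+), AT1G26761 at chr1:9251660-9251909 (-), XTH15 at chr4:8138393-8138642 (-), CYP96A5 at chr2:9341181-9341430 (+) and BBX23 at chr4:6369951-6370200 (-).
AT3G28220: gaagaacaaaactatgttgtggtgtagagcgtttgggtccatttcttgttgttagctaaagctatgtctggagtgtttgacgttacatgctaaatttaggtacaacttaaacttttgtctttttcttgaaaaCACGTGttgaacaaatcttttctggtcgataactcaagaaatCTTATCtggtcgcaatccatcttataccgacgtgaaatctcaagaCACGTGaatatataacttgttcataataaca
AT1G26761: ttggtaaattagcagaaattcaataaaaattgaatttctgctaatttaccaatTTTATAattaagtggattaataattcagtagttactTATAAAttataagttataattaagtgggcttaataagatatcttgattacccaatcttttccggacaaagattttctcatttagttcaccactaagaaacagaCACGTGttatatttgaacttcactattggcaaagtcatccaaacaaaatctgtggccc
XTH15: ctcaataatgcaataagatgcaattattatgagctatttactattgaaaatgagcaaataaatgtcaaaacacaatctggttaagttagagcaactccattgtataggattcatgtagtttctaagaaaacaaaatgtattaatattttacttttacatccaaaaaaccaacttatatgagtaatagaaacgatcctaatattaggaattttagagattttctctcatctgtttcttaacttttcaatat
CYP96A5: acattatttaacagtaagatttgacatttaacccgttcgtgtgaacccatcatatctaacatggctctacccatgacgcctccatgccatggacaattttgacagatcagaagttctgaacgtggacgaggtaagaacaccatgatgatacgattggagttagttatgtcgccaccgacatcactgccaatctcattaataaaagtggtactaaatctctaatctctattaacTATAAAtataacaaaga
BBX23: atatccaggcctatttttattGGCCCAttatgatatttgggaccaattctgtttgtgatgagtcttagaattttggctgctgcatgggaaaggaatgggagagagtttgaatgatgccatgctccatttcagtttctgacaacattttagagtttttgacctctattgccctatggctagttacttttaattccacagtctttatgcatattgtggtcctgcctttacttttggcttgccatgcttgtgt
Motifs searched on both strands were the G-box (CACGTG), a PIF-binding E-box (CACATG), the I-box (GATAAG), the evening element (AAATATCT), a CCA1-binding site (AAAAATCT), the telo-box (AAACCCTA), site II (TGGGCC) and a TATA box (TATAAA). AT3G28220 has 2 G-boxes, nearest the start at 31 bases upstream, and an I-box, and AT1G26761 has a G-box and 2 TATA matches. CYP96A5 has a TATA match, BBX23 a site II match, and XTH15 none of these letters. A G-box lies in 7.2% of the 22844 promoters of tested genes, in 8% of those of higher calls and in 8.79% of those of lower calls. The PIF-binding E-box lies in 11.4%, 10.3% and 14.4% of the same sets, the I-box in 12.4%, 13.8% and 13.8%, the evening element in 4.84%, 5.93% and 3.97%, site II in 15.4%, 19.6% and 12.5%, and TATA in 46.6%, 44.3% and 47%. Among gene lists, 9 of 23 clock promoters hold a G-box (39.1%) and 6 hold an evening element (26.1%), 10 of 19 promoters of sugar starvation genes hold an I-box (52.6%), and site II lies in 9 of 18 promoters of DNA replication genes, 10 of 20 of SR splicing factors, 8 of 16 of other splicing and decay factors and 5 of 10 of heat shock genes. These are descriptions of letters in a window, with no test, and the lists named were chosen after their values were seen.

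The light-harvesting antenna was the group with the highest median. The antenna proteins bind chlorophyll a and b and pass excitation to photosystem I (LHCA proteins) and photosystem II (LHCB proteins). All 20 antenna genes rose, with a median log2 change of 4.26 against 0.01 over all genes, and 19 of the 20 were still called without each library in turn. Together they took 21328 and 33082 CPM in red light, against 2341 and 1947 CPM in darkness. LHCA1 (AT3G54890) had 1573 and 1988 CPM in red light, against 24.3 and 20.2 CPM in darkness, a log2 change of 6.32 ± 0.48 (adjusted p = 9.99e-07). LHCB2.2 (AT2G05070) had 647 and 832 CPM in red light, against 9.98 and 9.54 CPM in darkness, a log2 change of 6.24 ± 0.50. LHCB1.4 (AT2G34430) rose most, with 782 and 1221 CPM in red light, against 8.35 and 6.08 CPM in darkness, and a log2 change of 7.12 ± 0.70. The smallest rises were those of the CP29 genes LHCB4.3, LHCB4.2 and LHCB4.1, with log2 changes of 1.23, 1.56 and 2.13, and in all 20 genes both red libraries lay above both dark libraries, as they did in 34.8% of all genes tested. LHCB1.3, with 2850.1 and 5549 CPM in red light, against 601 and 330.5 CPM in darkness, was not called without dark replicate 2 (log2 change 2.78) and stood at 2.58 without red replicate 2, where LHCB1.5 stood at 3.93 instead of 4.67. LHCB1.1, LHCB1.2 and LHCB1.3 share 95.6% to 96.4% of 804 coding bases, so the split of reads among them is uncertain.

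Genes for proteins of the photosystems and of electron transport rose as a whole group. All 32 genes tested were called higher, with a median log2 change of 3.12, and all 32 held without each library in turn. In photosystem I, PSAN (AT5G64040), a subunit on the lumen side, had 447 and 588 CPM in red light, against 27.1 and 39.5 CPM in darkness, a log2 change of 3.96 ± 0.25 (adjusted p = 3.53e-07). PSAH2 had 376 and 462 CPM in red light, against 10.3 and 13 CPM in darkness, and PSAO had 707 and 871 CPM in red light, against 41.2 and 43.2 CPM in darkness. On the photosystem II side the oxygen-evolving proteins PSBO2, PSBQA and PSBP-1 rose by 3.74, 3.80 and 2.77. Among carriers, ferredoxin FD2 rose by 3.01, the ferredoxin-NADP reductases FNR2 and FNR1 by 4.27 and 2.75, and the plastocyanins DRT112 and PETE1 by 4.03 and 2.84. NPQ4, the PsbS protein of energy dissipation, had 668 and 992 CPM in red light, against 70.8 and 94.3 CPM in darkness, and STN7, the kinase of state transitions, had 46.1 and 61.7 CPM in red light, against 13.1 and 15.1 CPM in darkness. The smallest rises were those of PGR5, a protein of cyclic electron flow, and the Rieske protein PETC, at 1.39 and 1.54.

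**Figure D2:**
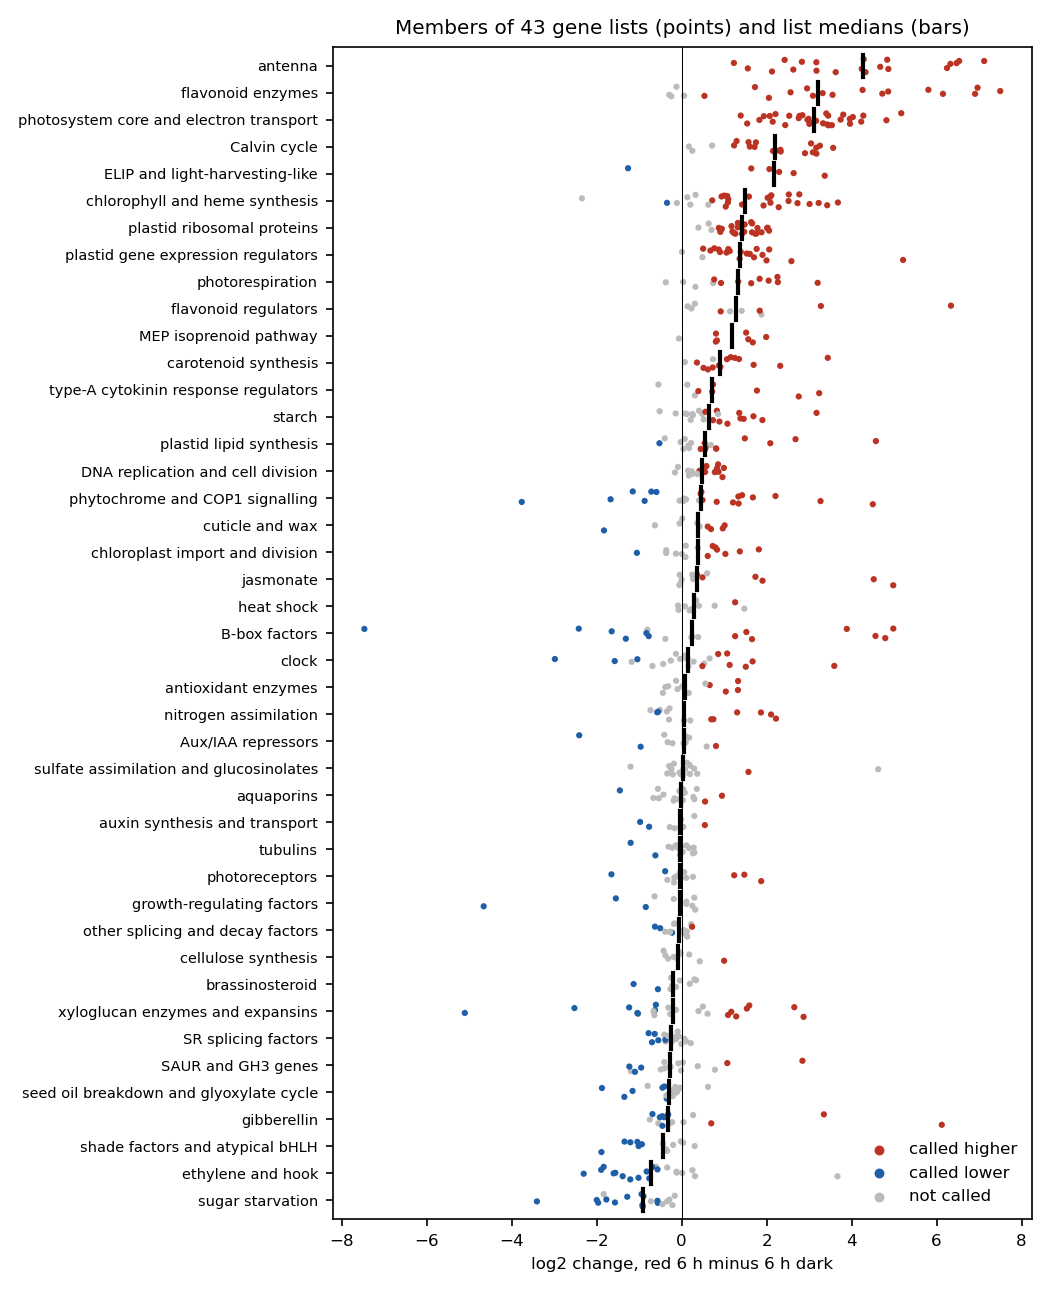
Each row is 1 of 43 gene lists and each point a member at its log2 change, red 6 h minus 6 h dark, on the x axis; red points were called higher, blue points lower and grey points were not called, and the black bar is the list median. The antenna (median 4.26), flavonoid enzyme (3.20) and photosystem core (3.12) lists lie furthest to the right, and the sugar starvation (-0.92) and ethylene and hook (-0.73) lists furthest to the left.

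Carbon fixation and photorespiration genes rose with the photosystems. Of 20 Calvin cycle genes, 17 rose and 0 fell, with a median of 2.19, and 14 of them held without each library in turn. Rubisco activase, RCA (AT2G39730), had 1666 and 2761 CPM in red light, against 239 and 282 CPM in darkness, a log2 change of 3.09 ± 0.33. GAPA-2, a subunit of the plastid glyceraldehyde-3-phosphate dehydrogenase, had 736 and 1003 CPM in red light, against 65.5 and 81.3 CPM in darkness, and EMB3119, a plastid ribose-5-phosphate isomerase, rose by 2.22. Among the Rubisco small subunits, whose counts can mix between near-identical copies, RBCS1B and RBCS3B rose by 3.25 and 2.90. RBCS1A had 3215 and 4847 CPM in red light, against 1800.5 and 1491 CPM in darkness; it was called with all libraries and lost its call without dark replicate 1, dark replicate 2 or red replicate 2, at log2 changes of 1.40, 1.14 and 0.93. Phosphoribulokinase, PRK, was not called, at 0.72. In photorespiration, which recycles the glycolate made by Rubisco's oxygenation, 9 of 13 genes rose and 0 fell, with a median of 1.33. Serine hydroxymethyltransferase SHM1 had 469.8 and 728 CPM in red light, against 61.8 and 68.5 CPM in darkness, the aminotransferase GGT1 had 576 and 891 CPM in red light, against 148 and 157 CPM in darkness, and the glycolate oxidases GOX1 and GOX2 rose by 1.84 and 1.64.

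Nitrogen assimilation genes moved in both directions, and starch genes rose where they were called. Plastid glutamine synthetase, GS2 (AT5G35630), had 739 and 989 CPM in red light, against 185 and 217 CPM in darkness, and ferredoxin-dependent glutamate synthase GLU1, its partner in the plastid, had 673 and 1040.3 CPM in red light, against 198 and 272 CPM in darkness. Nitrate reductase NIA1 had 417 and 454 CPM in red light, against 179 and 173 CPM in darkness, and the asparagine synthetase ASN2 had 63.3 and 57.2 CPM in red light, against 14.1 and 11.8 CPM in darkness. Against them the cytosolic glutamine synthetase GLN1.3 fell by 0.58 and glutamate dehydrogenase GDH1 by 0.55. In all 6 of 15 nitrogen assimilation genes rose (40.0%) and 2 fell (13.3%), beside 17.6% and 10.1% of all genes tested. Their median was 0.06, and -0.02 with library totals alone. Of 22 starch genes, 11 rose and 0 fell, with a median of 0.65, and 10 held without each library in turn. They included starch synthases SS4, SS1 and SS2, at log2 changes of 1.38, 1.08 and 0.89, as well as enzymes of starch breakdown. Beta-amylase BAM3 had 10.4 and 18.5 CPM in red light, against 1.72 and 1.47 CPM in darkness, alpha-amylase AMY3 had 78.6 and 86.2 CPM in red light, against 21.3 and 22.8 CPM in darkness, and the cytosolic disproportionating enzyme DPE2 rose by 1.36. Synthesis and breakdown genes thus rose together.

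Genes of chlorophyll synthesis rose from the entry enzyme to the last steps. Of 30 tetrapyrrole genes, 23 rose and 1 fell, with a median of 1.50, and 22 rises held without each library in turn. Glutamyl-tRNA reductase, HEMA1 (AT1G58290), which sets the flow into the pathway, had 277 and 392 CPM in red light, against 76.7 and 81.4 CPM in darkness, while its copy HEMA2 had 29.6 and 29.4 CPM in red light, against 38.6 and 36.4 CPM in darkness, and fell by 0.35. Magnesium chelatase subunits CHLI1 and CHLD had log2 changes of 3.01 and 1.09, and GUN4, which stimulates the chelatase, had 121 and 177 CPM in red light, against 12.4 and 15.3 CPM in darkness, with 946 of its 1296 bases shared with GCN2. CAO, which makes chlorophyll b, had 153 and 201 CPM in red light, against 33.6 and 39.2 CPM in darkness, a log2 change of 2.28 ± 0.19 (adjusted p = 1.79e-06), and PCB2, a divinyl reductase, had 74.6 and 95.9 CPM in red light, against 6.75 and 6.59 CPM in darkness. Protochlorophyllide oxidoreductase needs light for its catalysis and has 3 genes. PORC (AT1G03630) had 102 and 153 CPM in red light, against 12.4 and 14.9 CPM in darkness, a log2 change of 3.22 ± 0.33. PORA (AT5G54190), the form of etiolated seedlings, had 64.2 and 53.8 CPM in red light, against 344 and 256 CPM in darkness. Its log2 change of -2.35 ± 0.86 did not pass (adjusted p = 0.0571). Both of its red libraries lay below both dark libraries, as they did in 30.8% of all genes tested. PORB (AT4G27440) had 653 and 742 CPM in red light, against 495 and 409 CPM in darkness, and did not pass either (adjusted p = 0.391).

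Carotenoids protect chlorophyll and take part in light harvesting, and genes of their synthesis rose as well. Of 15 carotenoid genes, 13 rose and 0 fell, with a median of 0.91, and 11 held without each library in turn. Phytoene synthase, PSY (AT5G17230), the entry enzyme, had 160.2 and 250.1 CPM in red light, against 37.8 and 44.4 CPM in darkness. CYP97A3, a ring hydroxylase on the way to lutein, had 52.1 and 74.6 CPM in red light, against 4.71 and 6.97 CPM in darkness, a log2 change of 3.44 ± 0.28, the highest of the list. The enzymes between them rose less, with PDS3 at 1.07, ZDS at 0.62 and CRTISO at 0.73. The ring hydroxylases BCH1 and BCH2 were not called, at 0.07 and 0.74. The plastid MEP pathway makes the isoprenoid units for carotenoids and for the chlorophyll side chain, and 7 of its 8 genes rose, with a median of 1.17. DXR, its committed enzyme, had 136 and 171 CPM in red light, against 37.7 and 39.8 CPM in darkness. HDR, the last enzyme, was not called, at -0.06.

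The nuclear genes that build and run the plastid's own gene expression rose. Of 21 regulators of plastid gene expression, 19 rose and 0 fell, with a median of 1.36, and 15 held without each library in turn. SIG5 (AT5G24120), a light- and stress-responsive sigma factor that guides the RNA polymerase of plastids, had 20.1 and 16.6 CPM in red light, against 3.16 and 2.97 CPM in darkness, a log2 change of 2.58 ± 0.27. SIG2 and SIG1 rose by 1.76 and 1.70. CGA1 (AT4G26150), a GATA factor that promotes chloroplast development, had 2.06 and 5.61 CPM in red light, against 0.0915 and 0.112 CPM in darkness, a log2 change of 5.21 ± 0.55 that was 4.28 without red replicate 2, while its relative GNC was not called, at 0.01. GLK2, which activates photosynthesis genes, had 47.1 and 71.5 CPM in red light, against 17.6 and 23.4 CPM in darkness, and GLK1 was not called, at 0.49. PTAC7 and HMR, parts of the plastid transcription machinery, rose by 2.06 and 1.60, and GUN1, a protein of plastid-to-nucleus signalling, by 1.10. Of 27 nuclear-encoded plastid ribosomal proteins, 24 rose and 0 fell, with a median of 1.42, and 18 held without each library in turn. RPL27 had 159.6 and 210.2 CPM in red light, against 44 and 47 CPM in darkness, and RPL24 had 118 and 157 CPM in red light, against 39.7 and 47.4 CPM in darkness.

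Import, division and lipid genes of the plastid were mixed in size. Of 15 import and division genes, 7 rose (46.7%) and 1 fell (6.67%), beside 17.6% and 10.1% of all genes tested, and the median was 0.38. FTSZ1-1, which forms the division ring, had 37.4 and 58 CPM in red light, against 12.2 and 14.9 CPM in darkness, and TOC75-III, the channel of the outer envelope, had 131 and 170.2 CPM in red light, against 81.9 and 87.4 CPM in darkness. The exception was TOC159, the receptor for photosynthetic preproteins, with 288 and 348 CPM in red light, against 626 and 694 CPM in darkness, and a log2 change of -1.05 ± 0.22, a gene that overlaps GSTF2. Of 19 plastid lipid genes, 10 rose and 1 fell, with a median of 0.54, and 6 rises remained without dark replicate 1 or red replicate 2. The desaturases led: FAD4 had 15 and 27.4 CPM in red light, against 0.801 and 0.983 CPM in darkness, FAD8 had 37.6 and 50.6 CPM in red light, against 6.68 and 7.08 CPM in darkness, and FAD5 had 76.6 and 127 CPM in red light, against 22 and 25.9 CPM in darkness. FATB, the thioesterase that releases saturated fatty acids for export from the plastid, fell by 0.52. DGD1 and MGD1 make the galactolipids of the thylakoid; DGD1 rose by 0.81, and MGD1, at 0.56, lost its call without dark replicate 1, dark replicate 2 or red replicate 2 (log2 changes 0.55, 0.52 and 0.33).

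Genes related to the antenna that help build or protect the thylakoid mostly rose. Of 6 ELIP and light-harvesting-like genes, 5 rose and 1 fell, with a median of 2.18. OHP, which helps assemble photosystem II, had 41.5 and 58.7 CPM in red light, against 7.21 and 8.91 CPM in darkness, and its partner OHP2 had 49.9 and 64 CPM in red light, against 18.1 and 18.5 CPM in darkness. The early light-induced protein ELIP2 had 14.1 and 22.9 CPM in red light, against 1.17 and 2.41 CPM in darkness, a log2 change of 3.37 that was 3.96 without dark replicate 2. ELIP1 rose by 2.29 and was not called without dark replicate 1 or red replicate 2 (1.92 and 1.93). LIL3:1, which binds enzymes of chlorophyll synthesis, rose by 2.06, and LIL3:2 had 134 and 173 CPM in red light, against 403 and 335 CPM in darkness, a fall of 1.26 that was not called without dark replicate 1, red replicate 1 or red replicate 2 (log2 changes -1.16, -1.11 and -1.49). Of 12 antioxidant enzymes, 4 rose and 0 fell, 2 of them without dark replicate 1. They were the plastid ascorbate peroxidases SAPX (0.66) and TAPX (1.33; 1.24 and not called without dark replicate 1) and the plastid iron superoxide dismutases FSD3 (1.32) and FSD2 (1.04). FSD2 was not called without dark replicate 1, dark replicate 2 or red replicate 2, at 0.92, 1.10 and 0.83. Catalases CAT1, CAT2 and CAT3 were not called, at 0.01, -0.32 and -0.39.

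Genes for the later steps of flavonoid and anthocyanin synthesis rose, while those for the general phenylpropanoid steps were not called. Of 20 flavonoid enzymes, 16 rose and 0 fell, with a median of 3.20, and 14 held without each library in turn. Chalcone synthase, CHS (AT5G13930), the first committed enzyme, had 180.3 and 238 CPM in red light, against 2.08 and 19.8 CPM in darkness, a log2 change of 4.26 ± 0.84. DFR (AT5G42800) had 44.2 and 54.2 CPM in red light, against 0 and 0.536 CPM in darkness, LDOX had 55.6 and 60.9 CPM in red light, against 0.0229 and 0.938 CPM in darkness, and the glycosyltransferase UF3GT had 16.6 and 14.9 CPM in red light, against 0.0229 and 0.223 CPM in darkness; these enzymes make and decorate anthocyanins. The dark replicates differed widely in each of these genes, dark replicate 2 being the higher. Every red library lay above both, as in 34.8% of all genes tested. For DFR, LDOX and UF3GT this was also a condition of their place among the highest changes. Without dark replicate 2 the log2 changes of CHS, DFR, LDOX and UF3GT were 6.62, 14.67, 11.18 and 9.29, and without dark replicate 1 they were 3.37, 6.48, 5.92 and 6.09. Steadier in darkness were the flavonol glycosyltransferase UGT78D2, with 22.7 and 26 CPM in red light, against 3 and 3.31 CPM in darkness, and the chalcone isomerase-like CHIL, with 23 and 26.6 CPM in red light, against 2.4 and 2.57 CPM in darkness. PAL1, PAL2, C4H and 4CL1, which feed all phenylpropanoids, were not called, at -0.24, 0.06, -0.12 and -0.29. Flavanone hydroxylase F3H was near the floor (0.985 and 0.378 CPM in red light, against 0.0686 and 0.0447 CPM in darkness), shares 1588 of its 1681 bases with AT3G51238, and was not called without dark replicate 2 (3.25; 2.68 without red replicate 1).

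Of 10 regulators of flavonoid synthesis, 4 rose and 0 fell, with a median of 1.28. MYB12 (AT2G47460), an activator of flavonol genes, had 6.35 and 4.92 CPM in red light, against 0.0686 and 0.067 CPM in darkness, a log2 change of 6.34 ± 0.49. PAP1, the MYB activator of anthocyanin genes, had 8.4 and 9.82 CPM in red light, against 1.83 and 3.26 CPM in darkness, and its bHLH partners TT8 and EGL3 rose by 3.28 and 0.92. TTG1, the WD40 partner, was not called, at 0.23, nor was the repressor MYBL2, at 0.31.

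PHYA, the receptor that builds up in darkness, fell. Of 14 photoreceptor genes, 3 rose and 2 fell (3 and 4 with library totals alone), with a median of -0.03, beside 17.6% and 10.1% of all genes tested. PHYA (AT1G09570) had 477 and 516 CPM in red light, against 1409 and 1714 CPM in darkness, a log2 change of -1.65 ± 0.19 (adjusted p = 1.81e-05). PHYB (AT2G18790) had 112 and 121 CPM in red light, against 116 and 120.5 CPM in darkness, a log2 change of -0.02 ± 0.08, and its libraries overlapped. Of the blue light receptors, FKF1, which also times flowering, had 18.9 and 19.5 CPM in red light, against 6.52 and 7.3 CPM in darkness, and CRY3 had 11.5 and 14.1 CPM in red light, against 3.27 and 3.71 CPM in darkness. The phototropin PHOT2 rose by 1.24 but was not called without dark replicate 1, dark replicate 2 or red replicate 2 (1.27, 1.15 and 1.03). It shares 2760 of its 9287 bases with AT5G58150 on the other strand. LKP2, a relative of FKF1, fell by 0.39 but was not called without dark replicate 2 or red replicate 1 (-0.39 and -0.38).

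Within phytochrome signalling the PIF family split by member. PIFs are the bHLH factors that hold a seedling in its dark form. PIF7 (AT5G61270), the member best known from shade responses, had 9.38 and 10.6 CPM in red light, against 0.366 and 0.514 CPM in darkness, a log2 change of 4.50 ± 0.28 (adjusted p = 3.4e-07), with 318 of its 2275 bases shared with AT5G61260. PIF4 had 72.6 and 79.1 CPM in red light, against 31.7 and 33.9 CPM in darkness, and PIF5 had 50.7 and 61.1 CPM in red light, against 19.7 and 24.6 CPM in darkness, and both rose. PIF3 had 45 and 40.6 CPM in red light, against 75.8 and 64.7 CPM in darkness, and fell by 0.71. PIF1 had 44.5 and 47.1 CPM in red light, against 30.7 and 34.5 CPM in darkness, a rise of 0.49 that was not called without dark replicate 1 (0.37) or red replicate 2 (0.42). PIL1 (AT2G46970), a PIF target and shade marker, had 1.83 and 2.05 CPM in red light, against 26.6 and 26.2 CPM in darkness, a log2 change of -3.76 ± 0.21 (adjusted p = 2.36e-07).

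On the COP1 side, several of the brakes on light signalling rose. SPA1 (AT2G46340) had 130.0 and 140.4 CPM in red light, against 27.9 and 30.6 CPM in darkness, a log2 change of 2.21 ± 0.15, SPA3 rose by 1.42 and COP1 itself had 43.7 and 42.2 CPM in red light, against 31.6 and 30.8 CPM in darkness. RUP2, a repressor of the UV-B receptor, rose by 1.68. HY5 (AT5G11260), the bZIP factor that COP1 removes in darkness, had 25.2 and 22.2 CPM in red light, against 20.0 and 25.9 CPM in darkness; its log2 change was 0.05 ± 0.22 (adjusted p = 0.9), with overlapping libraries, and was -0.03 with library totals alone, -0.16 without dark replicate 1 and -0.07 without red replicate 1. Its relative HYH had 6.33 and 7.62 CPM in red light, against 0.48 and 0.96 CPM in darkness, and rose by 3.27. FHY1 and FHL, which carry phytochrome A into the nucleus, fell by 1.15 and 1.67. HFR1, an atypical bHLH factor, fell by 0.87 and was not called without dark replicate 2 (-0.79) or red replicate 2 (-0.90). Of the 23 genes of phytochrome and COP1 signalling, 12 rose and 6 fell, with a median of 0.44, and 9 rises and 4 falls held without each library in turn.

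**Figure D3:**
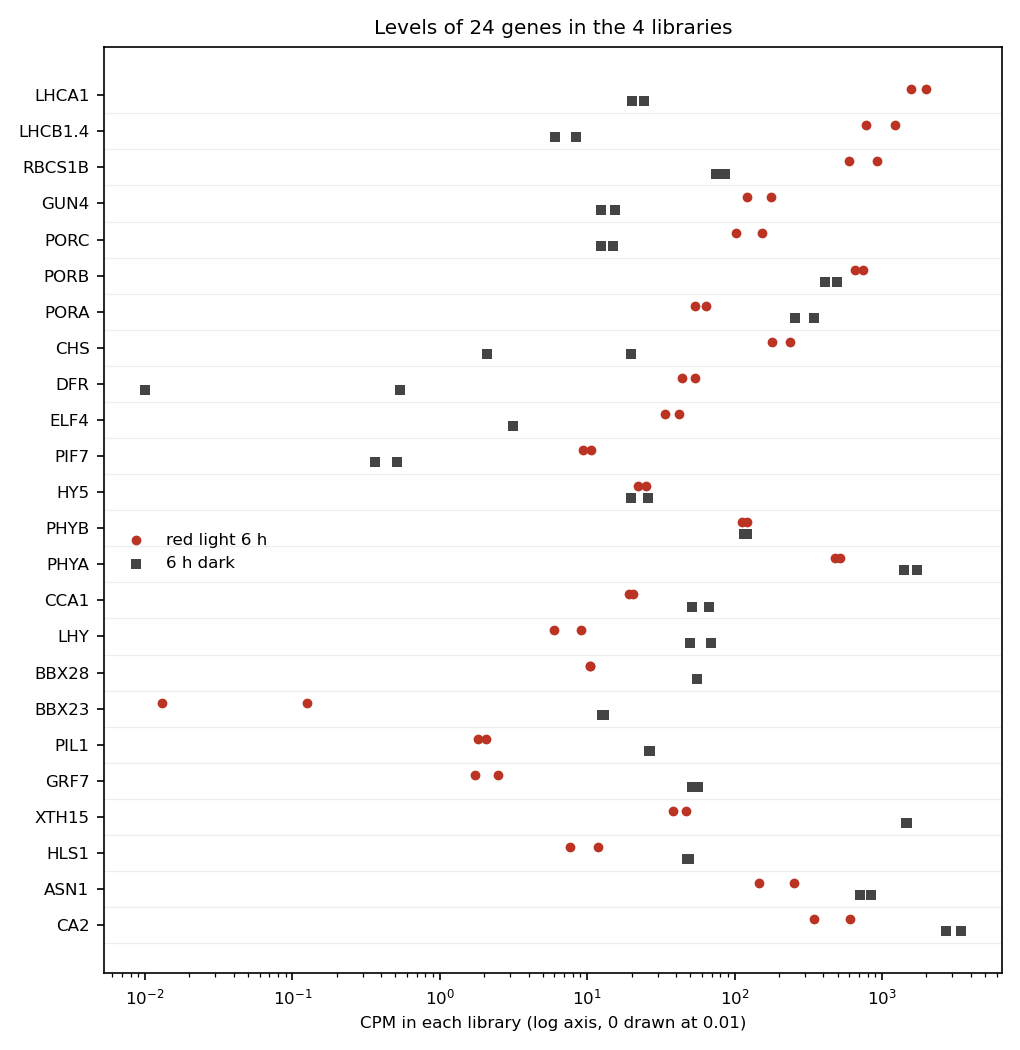
Each row is 1 of 24 genes and each point a library, with CPM on a log x axis (0 drawn at 0.01); red circles are the red 6 h libraries and dark squares, just beneath them, the 6 h dark libraries. In LHCA1 the red libraries stand at 1573 and 1988 against 24.3 and 20.2 in darkness, in XTH15 the order is reversed, and in PHYB and HY5 the points overlap.

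B-box zinc finger factors, a family with both promoters and repressors of greening, moved in both directions. Of 18 genes, 7 rose (38.9%) and 6 fell (33.3%), beside 17.6% and 10.1% of all genes tested, and the median was 0.24. BBX25 (AT2G31380) had 14.8 and 25.3 CPM in red light, against 0.778 and 0.916 CPM in darkness, a log2 change of 4.56 ± 0.37, and its close relative BBX24 had 219 and 217 CPM in red light, against 90.4 and 91.8 CPM in darkness; both dampen HY5. BBX22, which works with HY5, had 49.6 and 45.5 CPM in red light, against 15.9 and 17.2 CPM in darkness. BBX28 (AT4G27310) had 10.5 and 10.4 CPM in red light, against 55.8 and 55.8 CPM in darkness, BBX21 had 186 and 169 CPM in red light, against 304 and 304 CPM in darkness, and BBX20 had 6.04 and 6.09 CPM in red light, against 14.3 and 15.8 CPM in darkness, and all of them fell. BBX23, already described, fell most. BBX30 and BBX31, microproteins, rose from levels near the floor; BBX30 had 1.77 and 0.835 CPM in red light, against 0.0915 and 0 CPM in darkness, and BBX31 1.54 and 1.19 CPM in red light, against 0.137 and 0.0447 CPM in darkness. Their log2 changes of 4.79 and 3.89 lay between 3.78 and 9.43 and between 3.27 and 4.84 as dark replicates were left out, and BBX30 stood at 4.12 without red replicate 1. The flowering factor CO fell by 1.65 and was not called without dark replicate 2 (-1.22).

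Genes of the shade response were among those that fell. Of 13 shade and atypical bHLH genes, 0 rose and 6 fell, with a median of -0.44; 3 of the falls were called without dark replicate 2 and 2 without red replicate 1. HB-2 (AT4G16780), a homeodomain factor induced by shade, had 11.2 and 11 CPM in red light, against 38 and 44.2 CPM in darkness, a log2 change of -1.89 ± 0.14 (adjusted p = 9.12e-07). IBH1, an inhibitor of cell elongation, had 16.9 and 17.3 CPM in red light, against 40.3 and 38.8 CPM in darkness. HAT1, HAT2 and HAT3, homeodomain relatives of HB-2, were not called, at -0.02, -0.20 and -0.37.

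Genes of the circadian clock changed in both directions at 6 h. Of 23 clock genes, 7 rose and 3 fell, with a median of 0.14, beside 17.6% and 10.1% of all genes tested. The share of rises lay above that of all genes, and the share of falls was near it. ELF4 (AT2G40080), a part of the evening complex, had 42 and 33.8 CPM in red light, against 3.16 and 3.13 CPM in darkness, a log2 change of 3.59 ± 0.18 (adjusted p = 8.12e-08). PRR5, a pseudo-response regulator, had 37 and 37.3 CPM in red light, against 11.7 and 11.7 CPM in darkness, GI had 189 and 189 CPM in red light, against 79.3 and 93.2 CPM in darkness, and LNK1 had 86 and 81.1 CPM in red light, against 27.8 and 31 CPM in darkness. The morning factors lay lower in red light than in darkness: LHY (AT1G01060) had 9.11 and 5.97 CPM in red light, against 69.6 and 49.7 CPM in darkness, a log2 change of -2.98 ± 0.63, and CCA1 (AT2G46830) had 20.5 and 19.3 CPM in red light, against 66.6 and 51.8 CPM in darkness. CCA1 fell by 1.58 and RVE8, a related MYB factor, by 1.04, but each lost its call whenever 1 of the 4 libraries was left out, with log2 changes of -1.42, -1.77, -1.65 and -1.57 for CCA1 and -1.08, -1.07, -0.95 and -1.20 for RVE8 without dark replicates 1 and 2 and red replicates 1 and 2. LUX rose by 0.49 and was not called without dark replicate 1 (0.35) or red replicate 2 (0.42). It shares 1507 of its 3918 bases with AT3G46650 on the other strand. TOC1, ELF3 and PRR9 were not called, at 0.09, -0.04 and 0.66.

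The 6 h response was set beside the response to 1 h of red light, which has dark libraries of its own (0 h) and shares none with the 6 h comparison. Red light for 1 h had called 1060 genes (4.61%), 855 higher (3.72%) and 205 lower (0.891%). Of these, 532 were higher at both times, which is 13.1% of the 6 h list and 62.2% of the 1 h list, and 123 were lower at both times, 5.29% and 60.0%. Genes called in opposite directions were few: 6 higher at 6 h and lower at 1 h, and 19 lower at 6 h and higher at 1 h. The 1 h list was smaller without 0 h replicate 2 (582) or red 1 h replicate 2 (504). The difference between the responses was itself tested, and 2370 genes (10.3%) passed, 1340 (5.82%) with the higher log2 change at 6 h and 1030 (4.48%) with the lower log2 change at 6 h. That count was 1526 without 0 h replicate 1, 1267 and 1230 without red 1 h replicates 1 and 2, 1272 and 1174 without 6 h dark replicates 1 and 2, and 1208 without red 6 h replicate 2.

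Photosynthesis genes had the higher change at 6 h. The log2 change was higher at 6 h than at 1 h in 16 of 20 antenna genes, 24 of 32 photosystem genes, 11 of 20 Calvin cycle genes and 15 of 30 tetrapyrrole genes. LHCB1.2 had a log2 change of 6.53 at 6 h and 0.68 at 1 h, a difference of 5.85. UF3GT had 6.96 at 6 h and 0.79 at 1 h, a difference of 6.17, and AT5G48490 had 7.55 at 6 h and 1.27 at 1 h, a difference of 6.28. The floor in darkness makes the size of these last differences uncertain.

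Where clock and light signalling genes differed between the times, most had the lower change at 6 h. The log2 change was lower at 6 h than at 1 h in 12 of 23 clock genes, 10 of 18 B-box genes and 6 of 23 phytochrome and COP1 genes. It was higher at 6 h in 0 clock genes, in the B-box gene BBX22, by 0.76, and in the phytochrome signalling gene PIF7, by 3.93 (adjusted p = 0.000147). HY5 had a log2 change of 0.05 at 6 h and 3.10 at 1 h, a difference of -3.05. PRR9 had 0.66 at 6 h and 5.51 at 1 h, a difference of -4.85, and SIG5 had 2.58 at 6 h and 5.27 at 1 h, a difference of -2.69. CCA1, LHY and BBX28 had opposite signs, with -1.58, -2.98 and -2.42 at 6 h and 2.40, 1.56 and 1.39 at 1 h (LHY not called at 1 h), and the difference passed in each (-3.97, -4.54 and -3.81). PIL1 had -3.76 at 6 h and -3.83 at 1 h, and its difference did not pass (adjusted p = 0.921). Among 10 heat shock genes, 1 was called higher at 6 h and 4 at 1 h. Of all genes tested 17.6% were called higher at 6 h and 3.72% at 1 h, so these counts have different backgrounds. The gene called at 6 h was HSP18.2, at 1.26 (1.02 and 1.16 and not called without dark replicate 2 or red replicate 2). HSP70, HSP101 and MBF1C had lower log2 changes at 6 h than at 1 h, by -2.35, -2.26 and -1.70.

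**Figure D4:**
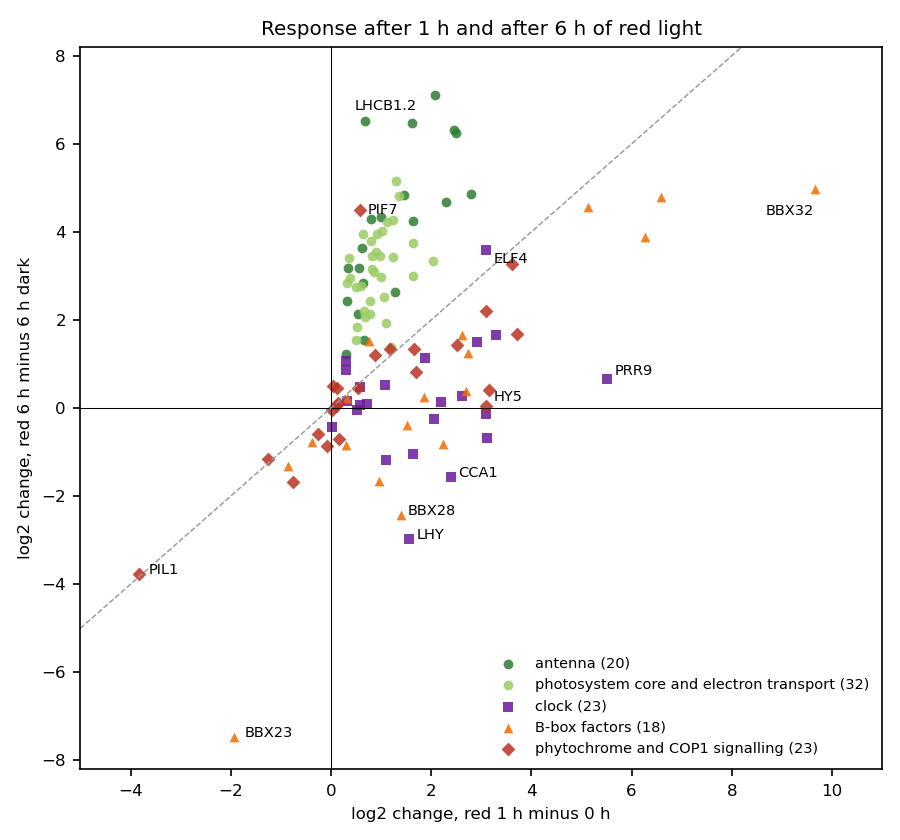
Each point is a gene of 1 of the lists named in the legend, with its log2 change after 1 h of red light (red 1 h minus 0 h) on the x axis and after 6 h (red 6 h minus 6 h dark) on the y axis, and the diagonal marks equal responses. Antenna and photosystem genes lie above the diagonal, as LHCB1.2 at 6.53 against 0.68, and many clock and B-box genes lie below it, as PRR9 at 0.66 against 5.51.

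Among hormone genes, the ethylene and apical hook list had the most falls. Of 20 genes, 0 rose and 12 fell, with a median of -0.73, and 8 falls held without each library in turn. The highest log2 change of the list, 3.67, was that of a member that was not called. With the replicate number as a block, 1 member was called higher. HLS1 (AT4G37580), which the hook requires, had 7.69 and 11.8 CPM in red light, against 49.3 and 47.2 CPM in darkness, a log2 change of -2.31 ± 0.35. The receptor ERS1 had 88.5 and 92.6 CPM in red light, against 191 and 176 CPM in darkness, and the receptor ERS2 had 13.9 and 17.1 CPM in red light, against 55.6 and 55.2 CPM in darkness. EIN2, the central transducer, had 285 and 300.1 CPM in red light, against 497 and 538 CPM in darkness. EBF2, an F-box protein that removes ethylene-response factors, fell by 1.21, and CTR1, the kinase that holds the pathway back, by 0.76. ACS5, which makes the ethylene precursor in etiolated seedlings, had 7.57 and 9.52 CPM in red light, against 32.4 and 31.1 CPM in darkness, and fell by 1.89. Receptors, the transducer and inhibitors of the pathway were all among the genes that fell.

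Gibberellin genes changed in both directions, among them enzymes and receptors. Of the list 18.8% rose and 37.5% fell, beside 17.6% and 10.1% of all genes tested, so the rises were near the share of all genes. Of 16 genes, 3 rose and 6 fell, with a median of -0.32, and 3 falls remained without dark replicate 1. GA2OX1 (AT1G78440), which inactivates gibberellin, had 2.59 and 1.81 CPM in red light, against 0.229 and 0.201 CPM in darkness, a log2 change of 3.35 ± 0.28, and GA3OX2, which makes the active form, had 1.97 and 1.43 CPM in red light, against 0 and 0.0447 CPM in darkness. Both were near the floor in darkness, and the GA3OX2 log2 change of 6.12 was 5.16 and 9.81 without dark replicates 1 and 2. The receptors GID1B and GID1C fell by 0.45 and 0.41, and the DELLA repressor RGA by 0.32. In the brassinosteroid list 0 of 12 rose and 2 fell (16.7%). CPD, a synthesis enzyme, had 121 and 131 CPM in red light, against 271 and 281 CPM in darkness. BIN2, the kinase that restrains the pathway, had 271 and 272 CPM in red light, against 388 and 413 CPM in darkness.

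Auxin genes changed in both directions. Of all genes tested 17.6% rose and 10.1% fell. Of 11 Aux/IAA repressors, 1 rose and 2 fell; IAA29 (AT4G32280) had 2.06 and 1.96 CPM in red light, against 9.91 and 11.5 CPM in darkness, a log2 change of -2.41 ± 0.17, and held without each library in turn. IAA5, at 0.81, was not called without dark replicate 1, dark replicate 2 or red replicate 2 (0.90, 0.67 and 0.65). IAA19, at -0.96, lost its call whenever 1 of the 4 libraries was left out, with values of -1.04 and -0.95 without the dark replicates and -0.82 and -1.19 without the red replicates. Of 16 SAUR and GH3 genes, 2 rose and 3 fell, with 1 fall without red replicate 1. SAUR14 had 26.2 and 29.4 CPM in red light, against 3.68 and 4.06 CPM in darkness, and rose by 2.84, while SAUR22 had 3.5 and 3.66 CPM in red light, against 8.42 and 8.4 CPM in darkness, and fell by 1.23. SAUR22 has near-identical neighbours that can share its counts. YUC8, an enzyme of auxin synthesis, had 9.04 and 11.1 CPM in red light, against 15.4 and 18.8 CPM in darkness, and fell by 0.77. Of 9 genes of auxin synthesis and transport, 1 rose and 2 fell: YUC9 also fell, by 0.98, but was not called without dark replicate 1 (-0.66) or red replicate 2 (-0.90). The efflux carrier PIN7 rose by 0.55 and was not called without dark replicate 1 (0.52), dark replicate 2 (0.51) or red replicate 2 (0.52).

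Cytokinin and jasmonate genes rose where they changed. Of 9 type-A response regulators, which cytokinin induces, 6 rose and 0 fell, with a median of 0.72, and 4 held without each library in turn. ARR7 had 22.2 and 24.5 CPM in red light, against 7.8 and 5.87 CPM in darkness, ARR16 had 7.39 and 8.5 CPM in red light, against 1.28 and 1.07 CPM in darkness, and ARR15 had 3.17 and 3.68 CPM in red light, against 0.366 and 0.357 CPM in darkness. Of 13 jasmonate genes, 6 rose and 0 fell, with a median of 0.36. AOC2, a plastid enzyme of jasmonate synthesis, had 11.3 and 15.9 CPM in red light, against 0.366 and 0.491 CPM in darkness, and LOX2, another, had 4.72 and 5.74 CPM in red light, against 0.252 and 0.201 CPM in darkness. The signalling genes MYC2, JAZ1 and JAZ10 were not called, at -0.03, -0.06 and -0.05. MYC2 shares 3241 of its 3289 bases with AT1G32630 on the other strand, so the reads of these overlapping genes cannot be separated.

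Among cell wall genes the falls were in xyloglucan enzymes and most rises in expansins. Of 22 genes, 7 rose and 7 fell, with a median of -0.20; all 7 that fell were XTH genes, and the 7 that rose were 5 expansins, XTH9 and XTH16. XTH9, at 1.17, lost its call whenever 1 of the 4 libraries was left out (1.06, 1.21, 1.06 and 1.21 without dark replicates 1 and 2 and red replicates 1 and 2), and XTH16, at 1.28, lost it without dark replicate 1 (1.10) or red replicate 2 (1.17). EXPA1 (AT1G69530) had 399.6 and 618 CPM in red light, against 77.2 and 84.8 CPM in darkness, EXPA10 had 48.3 and 76.8 CPM in red light, against 8.47 and 8.64 CPM in darkness, and EXPA6 had 113 and 138 CPM in red light, against 41.4 and 45.4 CPM in darkness; expansins loosen walls. XTH5 had 5.38 and 5.16 CPM in red light, against 31.2 and 29.5 CPM in darkness, a log2 change of -2.52 ± 0.22, next to the larger fall of XTH15, and XTH8 and XTH30 fell by 1.04 and 0.61. Rises numbered 4 without dark replicate 2 or red replicate 1, and falls numbered 4 without red replicate 2. Of 10 cellulose synthesis genes, CESA5 alone was called, with 144 and 124 CPM in red light, against 65.5 and 68.6 CPM in darkness, and the main primary wall subunits CESA1, CESA3 and CESA6 were not called, at -0.04, -0.11 and -0.03. Of 15 tubulins, TUB1 and TUB6 fell (13.3%), by 1.20 and 0.62, and 0 rose. Of all genes tested 17.6% rose and 10.1% fell, against 11.1% and 5.56% of the aquaporins. Of 18 aquaporins, 2 rose and 1 fell: PIP1;4 rose by 0.95, PIP2E by 0.55 (not called without dark replicate 2 or red replicate 1, at 0.44 and 0.38), and PIP2;4 had 106 and 66.8 CPM in red light, against 282 and 192 CPM in darkness, and fell by 1.45 (not called without red replicate 2, at -1.19).

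More genes of the cuticle rose than fell. Of 10 genes, 4 rose and 1 fell. CER3, a wax alkane enzyme, rose by 0.69, LACS2, which activates fatty acids for cutin, by 1.01 and GPAT8, a cutin acyltransferase, by 0.61. LTP2 (AT2G38530), a lipid transfer protein of the epidermis, had 473 and 711 CPM in red light, against 1906 and 2296 CPM in darkness, a log2 change of -1.83 ± 0.29. LTP1, its neighbour on the genome, had 145 and 215 CPM in red light, against 85.9 and 98.2 CPM in darkness, and rose by 0.97, a call lost without dark replicate 1 (0.84) or red replicate 2 (0.62).

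Most genes of the sugar starvation list fell, and genes of seed oil breakdown fell where they were called. Of 19 starvation genes, 0 rose and 12 fell, with a median of -0.92; 5 falls were called without dark replicate 2 and 5 without red replicate 1. BCAT-2 (AT1G10070), which acts on branched-chain amino acids, had 17.9 and 32.3 CPM in red light, against 235 and 298 CPM in darkness, a log2 change of -3.41 ± 0.58. DYL1, a dormancy-associated gene, had 348 and 432 CPM in red light, against 1125 and 1189 CPM in darkness, and SEN1, a senescence marker, had 64 and 95.8 CPM in red light, against 296 and 343 CPM in darkness. Leucine breakdown enzymes MCCA and IVD fell by 1.77 and 1.28. ASN1 (AT3G47340), the asparagine synthetase of starved and dark tissue, had 146 and 252 CPM in red light, against 709 and 846 CPM in darkness, a log2 change of -1.96 ± 0.56 that was -1.86 and -1.65 and not called without dark replicate 2 or red replicate 1. Of 17 genes of seed oil breakdown and the glyoxylate cycle, 0 rose and 6 fell, with a median of -0.29, and 3 falls remained without red replicate 2. PCK1 (AT4G37870), which feeds carbon into sugar synthesis, had 779 and 667 CPM in red light, against 1797 and 1887 CPM in darkness, isocitrate lyase ICL had 125 and 90.4 CPM in red light, against 359 and 433 CPM in darkness, and the acyl-CoA oxidase ACX1 had 166 and 158 CPM in red light, against 392 and 329 CPM in darkness.

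Gene totals of splicing factors changed little in size. Of 20 SR splicing factors, 0 rose and 5 fell, with a median of -0.25, and 3 falls remained without dark replicate 2, red replicate 1 or red replicate 2. RS40 had 74.1 and 75.4 CPM in red light, against 122 and 121 CPM in darkness, a log2 change of -0.70 ± 0.09 (adjusted p = 7.4e-05), SR34 had 115 and 135 CPM in red light, against 203 and 225 CPM in darkness, and SCL30 had 55.4 and 58 CPM in red light, against 76.5 and 71 CPM in darkness. Of 16 other splicing and decay factors, 1 rose (6.25%) and 3 fell (18.8%), beside 17.6% and 10.1% of all genes tested. U2AF65A, which helps recognise the end of an intron, had 135 and 149.6 CPM in red light, against 211 and 229 CPM in darkness, and its partner U2AF35A had 79 and 86.2 CPM in red light, against 113 and 122 CPM in darkness. EIF4A-III, a part of the exon junction complex, rose by 0.24 but lost its call whenever 1 of the 4 libraries was left out, at 0.25 and 0.18 without the dark replicates and 0.24 and 0.19 without the red replicates. Splice forms are not resolved by gene totals.

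DNA replication genes rose by small steps that depended on every library. In a list of 18 for replication and division, 10 rose and 0 fell, with a median of 0.48. The count was 4 and 1 without dark replicates 1 and 2, and 5 and 3 without red replicates 1 and 2. MCM5, a subunit of the replicative helicase, had 24.2 and 25.3 CPM in red light, against 13.1 and 12.3 CPM in darkness, a log2 change of 0.96 ± 0.19, and was the member that held throughout. The mitotic genes CYCB1;1, CDKB1;1 and KN were not called, at -0.16, 0.15 and -0.09. Of 10 growth-regulating factors, 0 rose and 3 fell; beside GRF7, GRF8 had 0.632 and 0.926 CPM in red light, against 2.06 and 2.5 CPM in darkness. In sulfate assimilation and glucosinolate synthesis 1 of 19 genes (5.26%) rose and 0 fell, beside 17.6% and 10.1% of all genes tested. The gene that rose was MYB28, an activator of aliphatic glucosinolate genes, with 11.2 and 11.9 CPM in red light, against 4.28 and 3.51 CPM in darkness. With red replicate 2 left out 2 genes rose there, and with dark replicate 2 left out 1 fell.

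Early markers of the stomatal lineage, SPCH, TMM and EPF2, rose. SPCH (AT5G53210), which starts the lineage, had 4.7 and 6.9 CPM in red light, against 0.892 and 1.01 CPM in darkness, a log2 change of 2.61 ± 0.26. TMM, a receptor of its patterning, had 10.5 and 15.3 CPM in red light, against 3.89 and 4.36 CPM in darkness, and the signal peptide EPF2 had 1.4 and 1.5 CPM in red light, against 0.137 and 0.0893 CPM in darkness, a call lost without dark replicate 2 (3.36). MYB60, a guard cell factor, had 3.76 and 4.29 CPM in red light, against 5.97 and 7.64 CPM in darkness, and fell by 0.76, a call lost without dark replicate 2 (-0.59) or red replicate 1 (-0.69). Of the 6 markers 3 rose and 1 fell, and their sum was 41.2 and 49.2 CPM in red light against 27.3 and 29.0 CPM in darkness.

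The red response was set beside blue and white light at 6 h, each with dark libraries of its own and no library in common with the red comparison. Blue light called 8597 genes (37.4%), 5243 higher (22.8%) and 3354 lower (14.6%), and white light called 9573 (41.6%), 5348 higher (23.2%) and 4225 lower (18.4%). Of the red calls, 3543 higher and 1915 lower were called the same way in blue light, which is 87.4% and 82.4% of the red lists and 67.6% and 57.1% of the blue lists. In white light they were 3035 higher and 1837 lower, 74.8% and 79.1% of the red lists and 56.8% and 43.5% of the white lists. Calls higher in red light and lower in the other colour numbered 1 for blue and 11 for white light, and the reverse 3 and 16. Antenna genes summed to 26655 and 39768 CPM in blue light against 8354 and 4974 CPM in its dark libraries, and to 17481 and 15223 CPM in white light against 4020 and 4496 CPM, so the dark level differed between series.

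Differences between red and blue light were tested directly, and 22 genes passed (0.0956%). The log2 change was higher in red light in 1 (0.00435%) and lower in 21 (0.0913%). DESeq2 called 141, and 1460 genes had an unadjusted p under 0.05. Leaving out a library moved the count to 8 and 4 (red series dark replicates 1 and 2), 7 and 13 (red 6 h replicates 1 and 2), 7 and 47 (blue 6 h replicates 1 and 2) and 4 (blue series dark replicate 1). PIL1 had log2 changes of -3.76 in red light and -0.91 in blue light, a difference of -2.85 ± 0.28 (adjusted p = 0.000578). GA2OX1 had 3.35 in red light and 6.25 in blue light, a difference of -2.91 ± 0.44. PHYB had -0.02 in red light and 0.72 in blue light, a difference of -0.75 ± 0.11, and BBX22 had 1.52 in red light and 2.90 in blue light, a difference of -1.38 ± 0.21. Of the 46 lists these were the 4 members that differed between red and blue light.

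Between red and white light 627 genes differed (2.72%), 200 with the higher (0.869%) and 427 with the lower log2 change in red light (1.86%). The count was 282 and 320 without red series dark replicates 1 and 2, 308 without red 6 h replicate 2, 272 and 300.0 without white series dark replicates 1 and 2, and 400.0 without white 6 h replicate 1. In 7 of 20 flavonoid enzymes the log2 change was lower in red than in white light. CHI differed by -2.68, CHIL by -2.60, UGT78D2 by -2.41 and 4CL3 by -2.34, and PAL1, PAL2 and C4H by -1.51, -1.37 and -1.18. Among regulators, HY5 had 0.05 in red light and 1.65 in white light, a difference of -1.60 ± 0.31. SIG5 differed by -3.20, RUP2 by -3.06, ELF4 by -1.50, BBX22 by -1.95 and PHYB by -0.82. The log2 change was higher in red than in white light in 2 of 11 Aux/IAA and 2 of 16 SAUR and GH3 genes. It was also higher in 4 of 13 shade and atypical bHLH genes, with 0 the other way in these lists. White light gave the lower list medians. They were 0.05 in red and -0.31 in white light for Aux/IAA and -0.28 and -1.17 for SAUR and GH3 genes. For shade and atypical bHLH genes they were -0.44 and -1.41. IAA6 had 0.09 in red light and -3.52 in white light, a difference of 3.61 ± 0.57. The shade factors HAT1, HAT2 and HAT3 differed by 1.26, 1.45 and 1.40. Gibberellin genes were split: the synthesis enzymes GA20OX1 and GA20OX2 differed by 1.77 and 0.88, and GA2OX1 and the receptor GID1B by -2.57 and -0.74. None of the antenna, photosystem, Calvin cycle, carotenoid or plastid ribosomal genes passed the test of either difference, which does not show that they responded alike.

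**Figure D5:**
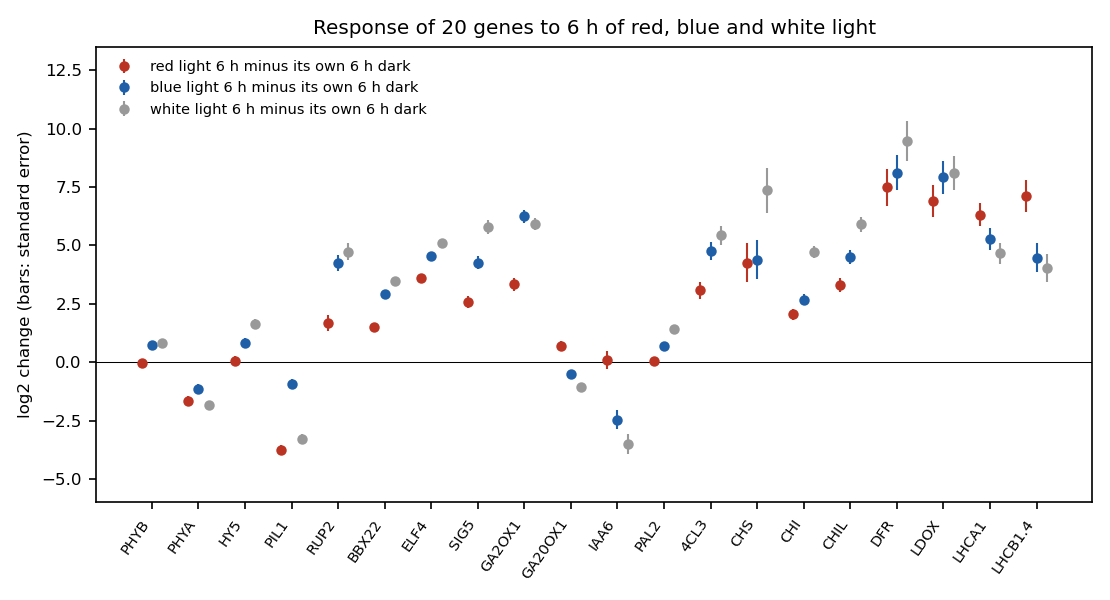
Points are the log2 changes of 20 genes after 6 h of red, blue and white light, each against its own 6 h dark libraries, on the y axis, and bars are standard errors. LHCA1 and LHCB1.4 lie above 0 in all colours, PIL1 stands at -3.76 in red and -0.91 in blue light, and HY5 at 0.05 in red and 1.65 in white light.

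Measured in reads, the first 20 genes on each side took similar percentages of their own total, and the totals differed. Their summed changes were 37586 CPM for the gain and -19544 CPM for the loss. Summed over all higher calls, mean levels gained 152343 CPM, 24.67% of it in 20 genes, and over all lower calls they fell by 82559 CPM, 23.67% of it in 20 genes. CPM are not divided by gene length, so these are shares of reads and not of molecules. The largest gain was that of PYK10 (AT3G09260), a beta-glucosidase of the ER bodies, with 14976 and 8595 CPM in red light, against 7020.1 and 5416 CPM in darkness; its log2 change of 0.92 was not called without dark replicate 2 (0.72) or red replicate 1 (0.44). The other 9 of the 10 largest gains were 6 antenna genes, the Rubisco genes RBCS1A and RBCS3B, and RCA; RBCS1A, at 1.29, was not called without dark replicate 1 (1.40), dark replicate 2 (1.14) or red replicate 2 (0.93), and LHCB1.3, at 3.17, was not called without dark replicate 2 (2.78) and was 2.58 without red replicate 2. The largest loss was that of CA2 (AT5G14740), a carbonic anhydrase, with 343 and 602 CPM in red light, against 3439 and 2704 CPM in darkness, and a log2 change of -2.70 ± 0.52. GASA4, a gibberellin-regulated peptide gene, had 932 and 1093 CPM in red light, against 2789 and 2741 CPM in darkness, and TCTP, a growth-linked protein, had 1569.5 and 1672 CPM in red light, against 2496 and 2699.6 CPM in darkness. With LTP2, XTH15, PCK1, PHYA and DYL1 these made up 8 of the 10 largest losses. The remaining losses were UBQ3, a polyubiquitin, at -0.71, whose call was lost whenever 1 of the 4 libraries was left out (-0.88, -0.60, -0.85 and -0.65 without dark replicates 1 and 2 and red replicates 1 and 2), and HSC70-1, a chaperone, at -0.42, not called without dark replicate 1 (-0.41) or red replicate 2 (-0.41).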

How the data were processed

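RNA of whole etiolated seedlings was sequenced from libraries of the TruSeq sample prep kit v2, per the labels' protocols, and the authors deposited a table of raw read counts per gene for 22 libraries in 11 groups; the submitters' processing notes name the genome TAIR 10. Neither aligner nor counting tool is known from the sources used. Of 33602 genes, 32835 matched RefSeq (TAIR 10.1) by locus, which gave symbols and promoters, and 767 did not. From the deposited counts, genes passing filterByExpr (minimum count 10) were kept: 23011 genes with 99.99% of counts. They were scaled by TMM and fitted in edgeR 4.0.16 (R 4.3.3, limma 3.58.1) with 11 group means and 11 residual degrees of freedom, and tested by the quasi-likelihood F test with Benjamini-Hochberg adjustment; DESeq2 1.42.0 was an alternative. Other alternatives were RLE factors, library totals alone, other filters and subsets of libraries, a replicate block, thinning to 35000731 counts, organelle genes left out and each library left out. Errors are standard errors of the fit. Intervals and floors cover counting error only, and reads without molecular identifiers are not independent molecules. The script was tested on simulated data.

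Genes were named by rule: among called genes with at least 10 CPM in a group and no overlap of libraries, the 12 highest and the 12 lowest changes; the 10 largest gains and losses in CPM; of each list the 3 called members with the smallest adjusted p and those against the list's majority; all members of lists of up to 15 genes; a set of well-known light genes; and the 5 highest and lowest of each difference. Other members of longer lists were named after their values were seen. The members and the 46 lists (744 genes, of which 737 were tested) were chosen with earlier results of these data known. A promoter sequence among those of the highest changes is not reported here.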

Additional observations from a re-analysis of the deposited data

Results flagged for a closer look

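These genes had a response to 6 h of red light that differed from another response in the same model (edgeR quasi-likelihood F test of the difference, Benjamini-Hochberg over 23011 genes), and they are the 5 highest and 5 lowest differences of each kind among genes with at least 10 CPM in 1 group that passed that test. Values are log2 changes, and a difference is the red 6 h change minus the other change. No cause was tested for any of them.

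Against 1 h of red light, the highest differences were those of AT5G48490, a lipid-transfer-like protein, at 6.28, UF3GT at 6.17 and LHCB1.2 at 5.85. AT3G06880, a WD40 repeat protein, had 5.18 at 6 h and -0.18 at 1 h, a difference of 5.36, and AT2G32550, an Rcd1-like protein, had 5.57 at 6 h and 0.51 at 1 h, a difference of 5.06. The lowest was AT1G68250, an uncharacterized protein, with -4.57 at 6 h and 3.82 at 1 h, a difference of -8.39. AT1G68250 had 0.581 and 0.3 CPM in red light, against 2.15 and 18.9 CPM in darkness, so its 6 h value rests on dark replicate 2: without it the change was -2.31 and not called, without dark replicate 1 it was -5.45, and the call was also lost without red replicates 1 and 2 (-5.16 and -4.22). The 1 h value of AT1G68250 rests on red 1 h replicate 2. The gene had 0.73 and 12.0 CPM after 1 h of red light, against 0.231 and 0.628 CPM at 0 h. In the same red 1 h libraries the 12 seed storage markers summed to 34.4 and 858 CPM, and their part in this difference was not tested. BBX23 differed by -5.54, ASG4, a MYB-like relative of the clock factors, by -5.08 (0.16 at 6 h and 5.24 at 1 h), PRR9 by -4.85 and CYP96A5 by -4.77.

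Against blue light, GA2OX1 differed by -2.91, PIL1 by -2.85 and PHYB by -0.75. SQE3, a squalene epoxidase of sterol synthesis, had 1.31 in red and 3.02 in blue light, a difference of -1.71. SAHH2, which recycles the product of methylation reactions, had 0.93 in red and 2.61 in blue light, a difference of -1.68. AT1G13670, uncharacterized, differed by -1.79, AT5G04830, of the NTF2 family, by -0.91, CM1, a chorismate mutase of aromatic amino acid synthesis, by -0.90, NUDT2, a nudix hydrolase, by -0.82 and AT3G15090, of the alcohol dehydrogenase family, by -0.79. In SQE3, SAHH2, AT1G13670, AT5G04830, CM1 and AT3G15090 both colours gave a rise, and the rise was the smaller in red light.

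Against white light, RTFL21, of a peptide family that limits cell proliferation, had -1.76 in red and -4.84 in white light, a difference of 3.08. The gene of the microRNA MIR167d had -0.18 in red and -2.90 in white light, a difference of 2.73, and CAX7, a calcium exchanger, 0.12 and -2.23, a difference of 2.36. ACS5 differed by 2.26, with -1.89 and -4.16, and IAA19 by 2.15, with -0.96 and -3.12. In the other direction AT2G22590, a glycosyltransferase, had 4.08 in red and 9.48 in white light, a difference of -5.40, and AT3G57020, a phosphotriesterase-like protein, 3.13 and 7.57, a difference of -4.44. MSRB6, a methionine sulfoxide reductase, had 4.69 in red and 9.05 in white light, a difference of -4.37, UGT84A1, a sinapate glycosyltransferase, 3.59 and 7.74, a difference of -4.14, and ELIP1 2.29 and 5.80, a difference of -3.51. Some of these 6 h values moved when a library was left out: AT2G22590 was 4.75 without dark replicate 2, MSRB6 4.03 and 5.80 without dark replicates 1 and 2, and AT3G57020 2.43 without red replicate 1. IAA19 and ELIP1 also lost their 6 h calls without single libraries, as given with their pathways.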

How the results depend on the processing

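The count of 6378 genes lay between 5351 and 7761 under other normalizations, filters, depths and tools; DESeq2 called 6874, library totals alone 6494, a floor of 5 CPM in 2 libraries 5819, and the 4 compared libraries alone 5351. It was 2246 when a call also needed a log2 change of at least 1. With 1 library of the contrast left out it ranged from 3852 to 5329. The difference from 1 h of red light ranged from 1174 to 2257 genes with 1 library out, and the 1 h response from 504 to 1415. The difference from blue light was 22 genes, 141 by DESeq2 and 4 to 47 with 1 library out. The difference from white light was 627 genes, 1369 by DESeq2 and 272 to 517 with 1 library out. Replicate numbers were shared between groups, but the labels do not say that they mark a pairing, there are only 2, and deviations of same-numbered red 6 h and dark libraries correlated at 0.287. With the replicate number as a block, 7761 genes were called at 6 h, 1529 at 1 h, 3578 for the difference from 1 h, 72 for that from blue light and 1449 for that from white light. Among the genes named singly the sign changed in 4, all uncalled at 6 h. With 1 library out, PHYB ranged from -0.11 to 0.0057 (above 0 without red 6 h replicate 1), HY5 from -0.16 to 0.22 (below 0 without dark replicate 1, and at -0.071 without red 6 h replicate 1), MIR167d from -0.52 to 0.050 (above 0 without red 6 h replicate 2) and CAX7 from -0.26 to 0.37 (below 0 without red 6 h replicate 2, and at -0.078 without dark replicate 1). HY5 was also -0.026 with library totals alone. The cause was not tested. With library totals alone, 3 of the 46 lists had a median that turned below 0: Aux/IAA repressors (-0.03), nitrogen assimilation (-0.02) and sulfate assimilation (-0.04). In 4 lists falls then outnumbered rises, with 3 rises and 4 falls for photoreceptors, 2 and 3 for aquaporins, 7 and 8 for xyloglucan enzymes and expansins (both also with RLE factors) and 1 and 2 for sulfate assimilation. With 2 libraries a group, changes can be missed, and not only small ones. On the simulated data 61 of 100 genes changed by a log2 of 1 were called, and 85 of 100 changed by a log2 of 2. All others of the 22924 genes tested there were left unchanged, while 27.7% of genes were called in the real comparison. The adjusted p depends on the share of changed genes, so these rates need not be those of the real comparison.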
